A study of Mus musculus with 6 samples.

Results

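The mRNAs described here are 10 neuronal transcripts known to be carried into dendrites: Camk2a, Map2, Ddn, Shank1, Shank3, Nrgn, Dlg4, Dlgap3, Psd and Itpr1. They were chosen by name, and a probe set was taken as a member when the platform annotation gave it exactly 1 of these gene symbols. That rule found 9 of the 18194 singly named genes of the array, with 19 of its 45101 probe sets, and Itpr1 was not analysed here. Of the 19, 14 probe sets of 8 genes reached a mean intensity of 50 in at least 1 group and were tested. The other 5 are given by their values.

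The samples were 3 TRAP arrays and 3 unbound arrays of mouse cortex. In translating ribosome affinity purification (TRAP) a tagged ribosomal protein is made in chosen cells, and the tagged ribosomes are precipitated with the mRNA they carry. Here line ES691 was used, in which an S100a10 bacterial artificial chromosome drives the tag. The TRAP group is the precipitated RNA of those cells, and the unbound group is the whole cortex RNA left in the flow-through, which sample titles call input. Both groups came from the same transgenic line, backcrossed for 3 to 5 generations from FVB onto C57BL/6, with no treatment and no age stated. The series text says that this transgene also labels some non-neuronal cells, so the TRAP RNA is not from pyramidal neurons alone. The labels speak of biological replicates but do not say how many animals stand behind each. A p-value here therefore weighs a difference against the spread of 3 samples in each group, drawn towards the spread common to all tested probe sets. It does not weigh the difference against the spread of a known number of animals. The probe-set list that the series text recommends was not used here.

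Most neuronal mRNAs stay in the cell body, but a small set is packed into granules with RNA-binding proteins and moved along dendritic microtubules. Translation near synapses then supplies scaffold, kinase and cytoskeletal proteins where they are used. The members encode parts of that machinery: a microtubule protein (Map2), the kinase subunit and calmodulin buffer of the spine (Camk2a, Nrgn), scaffolds of the postsynaptic density (Shank1, Shank3, Dlg4, Dlgap3), and 2 further postsynaptic proteins (Ddn, Psd).

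Array medians lay between 31.4 and 31.8 in the TRAP group and between 42.4 and 43.1 in the unbound group, and precision is limited by having 3 arrays in each group. S100a10 itself was higher in TRAP RNA, at 14128 ± 1095 (SD, n = 3) against 2430 ± 451 (SD, n = 3). Marker lists moved with the groups. Over all tested genes 45.6% were lower and 23.2% higher. Some markers reached the mean intensity required for testing in 1 group alone, so this filter set their direction. In TRAP RNA alone these were the meningeal Lum, Col1a2 and Foxc2. In unbound RNA alone they were the microglial P2ry12, Cx3cr1 and C1qa, the striatal Pdyn and Drd2, the astrocyte Gfap and the endothelial Slco1c1. Meningeal fibroblast markers were higher for 7 of 7 tested genes, with a summed intensity of 16835 to 20724 in TRAP and 520 to 680 in unbound RNA, and smooth muscle markers for 3 of 3 (2707 to 3723 against 632 to 797). Oligodendrocyte markers were lower for 7 of 7 (8346 to 13715 against 51579 to 56994), interneuron markers for 8 of 9 (12572 to 15269 against 32491 to 33365), striatal neuron markers for 6 of 6 (1796 to 2687 against 7134 to 7294) and microglial markers for 5 of 6 (416 to 592 against 1228 to 1517). Astrocyte markers were lower for 5 of 8 and higher for 1 (13273 to 17482 against 27698 to 36410), and only 2 of 7 endothelial markers could be tested, both lower (87.6 to 100.3 against 269 to 368). Pyramidal neuron markers were higher for 2 of 6 and lower for 2 (10214 to 10663 against 11218 to 11492). The part of these shifts in the members' values was not tested, and in such bulk RNA fewer cells of a type and less RNA per cell cannot be told apart.

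Among the tested member probe sets, 9 of 14 were lower in TRAP RNA, 1 was higher and 4 were not called (limma with Benjamini-Hochberg adjustment over 22591 probe sets). Over all tested probe sets 68.3% were called, 47.7% lower and 20.6% higher. By gene, each read through its brightest tested probe set, 6 of 8 members were lower and 1 was higher, beside 45.6% and 23.2% of 12070 genes. The median log2 difference, TRAP minus unbound, was -0.78 for the 14 probe sets and -0.25 for all tested. Of the 14, 2 passed the level minimum in unbound RNA alone and so had to differ. Among the 12 that passed it in both groups, 7 were lower and 1 was higher, beside 44.5% and 19.5%. At least 2-fold lower were 6 of 14, beside 16.6%, and those 6 belong to Map2, Camk2a and Psd. Groups did not overlap for 12 of 14, beside 75% of all probe sets, and 11 of those were lower, beside 51.8%. Both of these counts include the 2 probe sets that passed in unbound RNA alone, Camk2a 1443876_at and Map2 1440699_at. The scale of the arrays matters for the smaller differences: centring each array on its median moved the median of all probe sets from -0.25 to 0.18 and the share of calls that were higher from 30.2% to 63.2%, and quantile normalisation moved them to -0.03 and 47.4%. After centring the members counted 7 lower and 3 higher of 14, beside 5755 and 9889 of all 22591 probe sets. After quantile normalisation they counted 8 lower and 1 higher, beside 7853 and 7083.

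**Figure D1:**
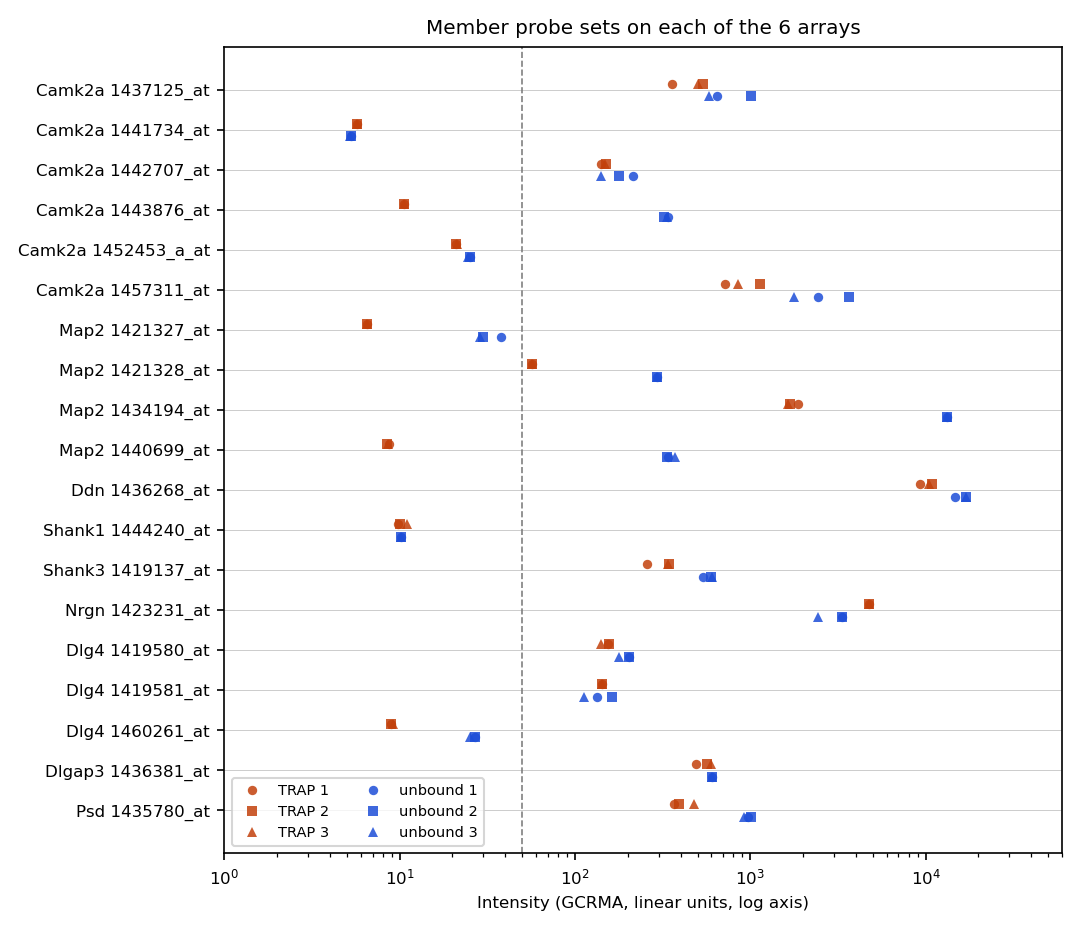
Intensity of the 19 member probe sets on each array, on a log axis, with TRAP arrays in orange and unbound arrays in blue, symbols giving the replicate number and the dashed line the level minimum of 50. All Map2 points of the TRAP arrays lie below those of the unbound arrays, Nrgn lies the other way round, and of the 4 brighter Camk2a probe sets only 1442707_at has groups that overlap.

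To show the regulatory sequence of the members at both ends of this range, the 250 bases before the annotated start are given for the called members with a single entry in the RefSeq promoter table (GRCm38.p6): Map2 with the largest decrease, Shank3 with a smaller one and Nrgn, the only increase. They are written 5′ to 3′, and capitals mark GGGCGG on either strand (the reverse strand reads CCGCCC), the core of a GC box.
Map2 (chr1:66175079-66175328, plus strand): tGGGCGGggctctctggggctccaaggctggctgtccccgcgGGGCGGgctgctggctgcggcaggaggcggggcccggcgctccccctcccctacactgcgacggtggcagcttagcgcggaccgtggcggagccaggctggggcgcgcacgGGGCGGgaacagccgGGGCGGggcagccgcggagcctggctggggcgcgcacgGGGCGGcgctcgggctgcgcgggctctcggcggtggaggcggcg
Shank3 (chr15:89499358-89499607, plus strand): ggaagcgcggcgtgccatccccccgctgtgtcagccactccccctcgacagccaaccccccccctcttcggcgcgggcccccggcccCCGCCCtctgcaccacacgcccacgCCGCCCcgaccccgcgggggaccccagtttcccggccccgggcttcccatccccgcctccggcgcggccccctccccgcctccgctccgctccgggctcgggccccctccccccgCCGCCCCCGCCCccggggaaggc
Nrgn (chr9:37552746-37552995, minus strand): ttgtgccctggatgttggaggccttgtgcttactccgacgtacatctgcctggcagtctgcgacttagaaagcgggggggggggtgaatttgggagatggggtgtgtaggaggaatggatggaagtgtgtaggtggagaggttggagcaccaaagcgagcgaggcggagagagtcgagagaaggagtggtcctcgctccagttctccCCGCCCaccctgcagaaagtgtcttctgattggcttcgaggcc
The Map2 window holds 5 such matches, that of Shank3 4 and that of Nrgn 1, and 32.7% of the 32851 promoter entries hold at least 1 in the same window. CpG dinucleotides number 34, 31 and 11, against a median of 6 over all entries. None of these windows holds TATAAA on either strand, a hexamer found in 12.4% of entries. The arrays measure RNA on ribosomes and in flow-through, not promoter activity, so these letters describe the genes only.

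Map2 encodes a protein that binds and bundles microtubules in dendrites, and its mRNA had the largest decrease of the member genes. Its brightest probe set, 1434194_at, read 1876, 1693 and 1646 on TRAP arrays 1 to 3 and 13209, 13281 and 13209 on unbound arrays 1 to 3. The groups lay far apart, and the difference was 7.63-fold (log2 -2.93, SE 0.06, adjusted p = 2.2e-06). Only 2.08% of tested probe sets had a difference this low or lower.

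A second Map2 probe set, 1421328_at, read 56.6 on every TRAP array and 295 on every unbound array, a log2 difference of -2.38. Such exact repeats come with this table: 11.1% of tested probe sets hold the same value on all TRAP arrays and 12.2% on all unbound arrays. With no spread within either group its SE of 0.02 rests on the other probe sets, and its adjusted p of 3.1e-07 says little about replicate error. Probe set 1440699_at read 8.63, 8.50 and 8.60 in TRAP and 340, 333 and 370 in unbound RNA (log2 -5.34, SE 0.05, adjusted p = 3.0e-07). With values under 50 raised to 50 that difference was -2.80, a size set by the floor and the unbound values alone. The remaining one, 1421327_at, stayed under 50 in both groups, with 6.53 on every TRAP array and 37.9, 29.8 and 28.7 on the unbound arrays. All 4 Map2 probe sets were therefore lower on every TRAP array, and the 3 tested ones kept their call under each alternative in which they could be fitted.

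Camk2a encodes the alpha subunit of calcium/calmodulin-dependent kinase II, an abundant enzyme of the postsynaptic density, and its probe sets did not give a common answer. The brightest, 1457311_at, read 719, 1130 and 850 on TRAP arrays 1 to 3 and 2425, 3639 and 1784 on unbound arrays 1 to 3. All TRAP values were below all unbound values, and replicate 2 was the highest of both groups. The difference was 2.84-fold (log2 -1.50, SE 0.32, adjusted p = 0.0099). Within replicate numbers it was -1.75, -1.69 and -1.07, and with the replicate number as a block the SE was 0.18.

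Probe set 1443876_at was the extreme, at 10.6 on every TRAP array against 338, 321 and 335 in unbound RNA (log2 -4.97, SE 0.03, adjusted p = 2.4e-07). Its TRAP values were identical and under the level minimum, so this SE and p-value say little about replicate error in TRAP RNA. Raising values under 50 to 50 left a difference of -2.73. The other tested Camk2a probe sets were not called. Probe set 1437125_at read 359, 538 and 506 against 648, 1013 and 580, with groups that did not overlap, an estimate of -0.65 (95% interval -1.36 to 0.05) and adjusted p = 0.087. It was called without probe sets holding repeated values (adjusted p = 0.049). Probe set 1442707_at read 140, 149 and 149 against 214, 178 and 140. These groups overlapped in range, and its estimate was -0.26 (95% interval -0.68 to 0.16, adjusted p = 0.21). Without unbound replicate 3 that last estimate was -0.42 and was called (adjusted p = 0.027), and without unbound replicate 1 it was -0.11. The remaining 2 Camk2a probe sets lay under 50, 1452453_a_at at 20.9 to 21.1 against 24.5 to 25.3 and 1441734_at at 5.73 against 5.19 to 5.30.

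The span from the highest to the lowest log2 difference among the tested probe sets of a gene was 4.71 for Camk2a, 2.96 for Map2 and 0.47 for Dlg4, beside a median of 0.48 over 5152 genes with several. The spans of Camk2a and Map2 rest on probe sets 1443876_at and 1440699_at, whose TRAP values lay far under the level minimum. With values under 50 raised to 50, a setting added after the data were seen, the Map2 span was 0.55, near the median of 0.45, and that of Camk2a was 2.47, wider than 98.9% of these genes. The raised Camk2a span was wider than 97.4% of the 457 genes with as many tested probe sets. The floor replaces every TRAP value of 1443876_at and 1440699_at, so the narrow raised span of Map2 does not show that its probe sets agree. Both probe sets had a TRAP mean under 25 and an unbound mean of at least 300, limits set after the values were seen, which 48 of the 22591 tested probe sets (0.212%) met. Of these, 17 have no single gene symbol, 3 belong to Meg3, 2 each to Malat1 and Luc7l2, and the other named genes have 1 each. Which part of a transcript each probe set reads was not used here.

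**Figure D2:**
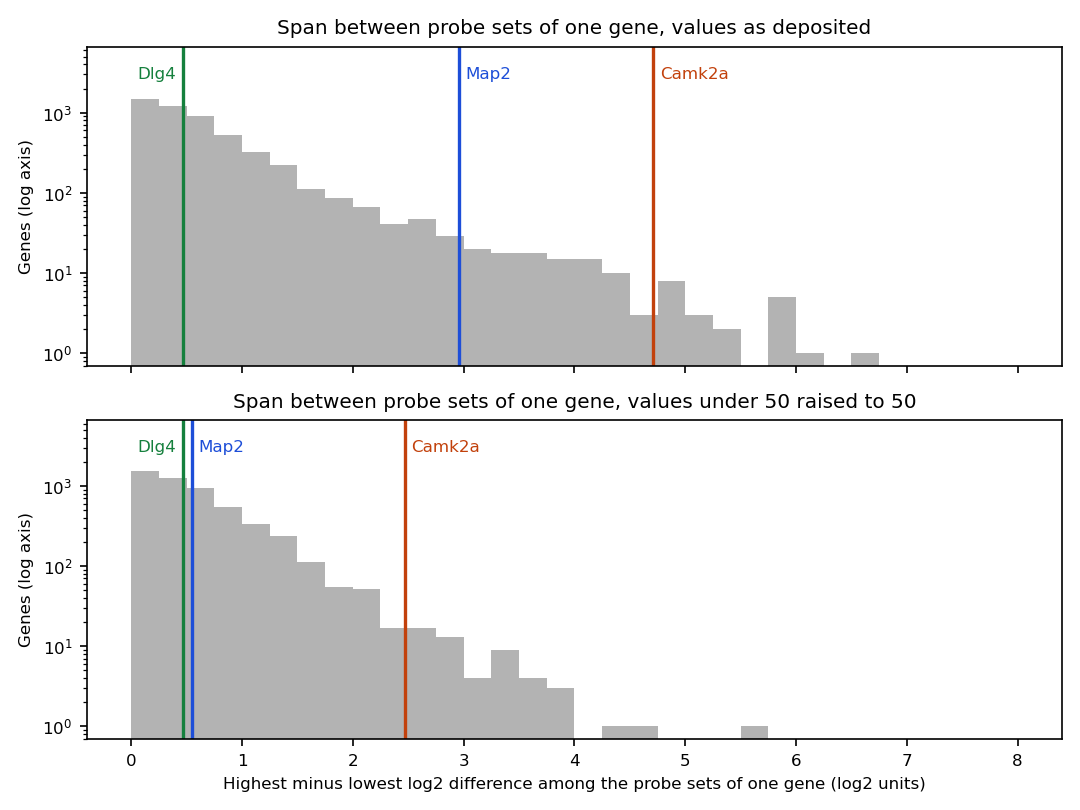
Number of genes (log axis) by the span in log2 units between the highest and lowest log2 difference of their tested probe sets, over 5152 genes with several, with deposited values above and with values under 50 raised to 50 below. Coloured lines mark Dlg4 at 0.47 in both panels, Map2, which moves from 2.96 to 0.55, and Camk2a, which moves from 4.71 to 2.47 and stays in the right tail.

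Among the scaffold members, Shank3 and 1 of 2 tested Dlg4 probe sets were lower, and Dlgap3 was not called. Shank3, which links glutamate receptor complexes to the actin cytoskeleton, read 257, 343 and 337 on TRAP arrays and 536, 596 and 606 on unbound arrays. Every TRAP value was below every unbound value, a 1.87-fold decrease (log2 -0.90, SE 0.13, adjusted p = 0.0026). Its relative Shank1 was measured by a single probe set at 9.79 to 11.0 on TRAP arrays and 10.1 on every unbound array, under the level minimum in both groups, so no difference could be read.

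Dlg4 encodes PSD-95, the central scaffold under glutamate receptors. Probe set 1419580_at read 154, 155 and 140 against 203, 203 and 178, without overlap (log2 -0.38, SE 0.07, adjusted p = 0.0073). Probe set 1419581_at read 143 on every TRAP array and 134, 162 and 113 on the unbound arrays, so the groups overlapped (log2 0.09, 95% interval -0.26 to 0.44, adjusted p = 0.58). The last, 1460261_at, was under 50 in both groups at 8.98 ± 0.163 and 26.4 ± 0.978 (SD, n = 3). The decrease of 1419580_at depended on the scale of the arrays: it was 0.06 after centring (adjusted p = 0.54) and -0.10 after quantile normalisation (adjusted p = 0.29), while 1419581_at was called higher after centring (log2 0.52, adjusted p = 0.016).

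Dlgap3 encodes SAPAP3, which joins PSD-95 to the Shank proteins. It read 491, 563 and 596 in TRAP RNA and 601, 605 and 604 in unbound RNA. The groups did not overlap, but the gap was small beside the spread of the TRAP arrays, and it was not called (log2 -0.14, 95% interval -0.34 to 0.06, adjusted p = 0.17). After centring it was called higher (log2 0.29, adjusted p = 0.020).

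Psd encodes an exchange factor that activates the small GTPase Arf6 in spines. It read 365, 391 and 475 on TRAP arrays and 964, 1013 and 917 on unbound arrays. No TRAP value came near the unbound values, and the decrease was 2.36-fold (log2 -1.24, SE 0.11, adjusted p = 4.1e-04). Ddn, the gene of dendrin, a protein of dendrites that kidney podocytes also make, read 9281, 10917 and 10445 against 14631, 17091 and 16942. Its decrease of 1.59-fold was even across replicate numbers, at -0.66, -0.65 and -0.70 (log2 -0.67, SE 0.09, adjusted p = 0.0022). It was not called after centring (log2 -0.23, adjusted p = 0.081), while Psd and Shank3 were (-0.81 and -0.47).

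Nrgn, which encodes the postsynaptic calmodulin-binding protein neurogranin, was the only member higher in TRAP RNA. It read 4771, 4771 and 4737 on TRAP arrays and 3340, 3322 and 2443 on unbound arrays, where replicate 3 was the lowest. Each TRAP value exceeded each unbound value, by 1.58-fold on average (log2 0.66, SE 0.14, adjusted p = 0.0088). Without unbound replicate 3 the difference was 0.51, still called. It was also higher after centring (1.10) and quantile normalisation (0.79).

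**Figure D3:**
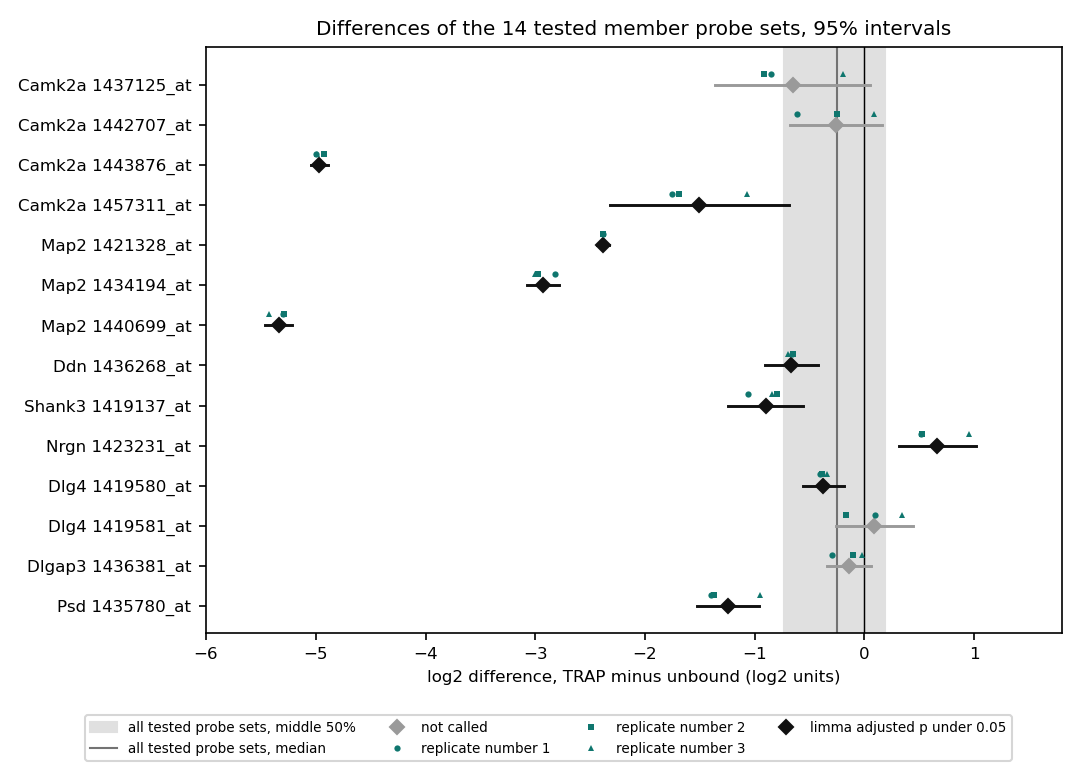
Log2 difference of each tested member probe set with its 95% interval from limma (diamonds and lines, black where called and grey where not) and the difference within each replicate number (small green symbols). The grey band holds the middle 50% of all tested probe sets around their median of -0.25, and Map2, Psd, Shank3 and the called Camk2a probe sets lie left of it while Nrgn lies right of it.

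Profiles over the 6 arrays, each centred on its own mean, were compared with those of all 12070 genes by root-mean-square difference, as a description only. Closest to Shank3 were Abl2, a kinase gene, Syt7, a synaptotagmin gene, and Cacna1c, a calcium channel gene, at 0.034 to 0.041 log2 units. Closest to Map2 were Opalin, an oligodendrocyte gene, Zer1 and Kctd14, at 0.057 to 0.066. Closest to Ddn was the kinesin gene Kif2a at 0.029. Camk2a, with its replicate spread, had no profile nearer than that of Rictor at 0.17.

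Genes of all lists were each read through their brightest tested probe set alone. Relatives of the members were read for comparison, 19 of 22 listed genes being testable. Of these 13 were lower, 1 was higher and 5 were not called, with a median log2 difference of -0.54, beside -0.21 for all genes. Over all genes 45.6% were lower and 23.2% higher. Map1a, another dendritic microtubule protein gene, read 752 ± 0 against 1819 ± 286 (SD, n = 3; log2 -1.26, adjusted p = 6.2e-04). Mapt, the gene of the axonal protein tau, was at 0.01 (SE 0.03, adjusted p = 0.84). The kinase subunits Camk2d and Camk2b were lower at -0.90 and -0.54, the second not after centring (adjusted p = 0.22). The 5 tested Camk2d probe sets spanned 2.04 log2 units, and 0.87 with values under the level minimum raised to that minimum. The direction given for Camk2d therefore need not hold for its other probe sets. Among scaffold and exchange factor genes Dlg2 was at -1.09 and Psd2 at -1.07. Pcp4, a small calmodulin-binding protein gene like Nrgn, was higher at 0.15 (adjusted p = 0.029). That call was lost without any of TRAP replicates 1 and 3 and unbound replicates 2 and 3 (adjusted p from 0.063 to 0.086). Differences between a member and its relatives were not tested.

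Partners in the postsynaptic density were lower for 11 of 20 tested genes, and 3 were higher (median log2 difference -0.39), beside 45.6% and 23.2% of all genes. Ppp1r9a, the gene of the actin-binding protein neurabin, was 3.00-fold lower and the adhesion gene Nlgn3 2.38-fold lower. Arf6, the GTPase on which the Psd protein acts, went the other way, at 8304 ± 1075 against 4631 ± 527 (SD, n = 3; log2 0.84, adjusted p = 0.0031), as did the exchange factor gene Kalrn (0.34). The 3 tested Arf6 probe sets spanned 1.26 log2 units, so the direction given for Arf6 need not hold for its other probe sets. The scaffold gene Homer3 was higher at 0.73, from an unbound value of 31.8, and was not called with values under 50 raised to 50 (log2 0.11, adjusted p = 0.32). Of 18 calcium and calmodulin genes 10 were lower and 1 was higher (median -0.34), beside the same shares of all genes. The ryanodine receptor genes Ryr3 and Ryr2, which encode calcium release channels related in role to the inositol trisphosphate receptors, were 6.97-fold and 4.52-fold lower and the calcium pump gene Atp2b1 2.50-fold lower, while the kinase gene Camk1 was 1.59-fold higher.

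Other mRNAs reported in dendrites were lower for 14 of 20 tested genes, while 1 was higher (median log2 difference -0.51). The shares over all genes, here and for the transport factors below, were 45.6% and 23.2%. The receptor gene Gria1 was 3.83-fold, the potassium channel gene Kcna1 3.32-fold and the complexin gene Cplx2 2.54-fold lower, and Actb, the beta-actin gene, was 1.13-fold higher (adjusted p = 0.0065; without probe sets holding repeated values 0.16). Tested probe sets of Cplx2 spanned 1.58 log2 units and those of Actb 0.91, so their other probe sets may read otherwise. Arc, an activity-induced gene, was singled out after its values were seen: it read 4491, 1163 and 1233 on TRAP arrays and 4018, 883 and 1199 on unbound arrays. Replicate 1 was high in both groups, the groups overlapped, and TRAP was higher in all 3 replicate numbers (log2 0.20). Its SE was 0.83 and its adjusted p 0.84, against 0.089 and 0.13 with the replicate block, so it was called in neither fit. Factors of mRNA transport were lower for 18 of 24 tested and higher for 1 (median -0.54), led by Stau2, a double-stranded RNA-binding protein of transport granules (3.08-fold), Purb (2.92-fold) and the kinesin gene Kif5a (2.43-fold). Igf2bp1 was called higher from levels of 55.7 and 42.0, the second under the level minimum. With values under 50 raised to 50 its log2 difference went from 0.41 to 0.16, still called (adjusted p = 0.0018), and with both means required to reach 50 it was not tested and 0 transport factors were higher.

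Of neuronal mRNAs listed as mainly kept in the cell body, 4 of 10 were lower and 1 was higher (median log2 difference -0.16), beside 45.6% and 23.2% of all genes. Where in the neuron these mRNAs lie was not measured here. The lower ones were Camk2b, given above, Nefl, a neurofilament gene, Snap25 and Tuba1a. Nefl read 10668 ± 417 against 13779 ± 555 (SD, n = 3; log2 -0.37, adjusted p = 0.0016), and after centring 0.063 (adjusted p = 0.32). Snap25, a vesicle fusion protein gene, fell 1.14-fold (log2 -0.19, adjusted p = 0.0012) but was higher after centring (0.24). Tubb3, a neuronal tubulin gene, was higher at 0.33 (adjusted p = 0.041), a call lost with the replicate block (adjusted p = 0.086) and without any of the TRAP replicates or unbound replicates 1 and 2 (adjusted p from 0.068 to 0.12). After centring 0 of these 10 were lower and 6 were higher, and of the 20 other dendritic mRNAs 5 were lower and 3 higher. Of all 22591 tested probe sets 5755 were then lower and 9889 higher, so the shares given above do not apply to these counts. Camk2b and Gap43 stand in the list of relatives too, and several other genes stand in more than 1 list. The difference between these lists was not tested.

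**Figure D4:**
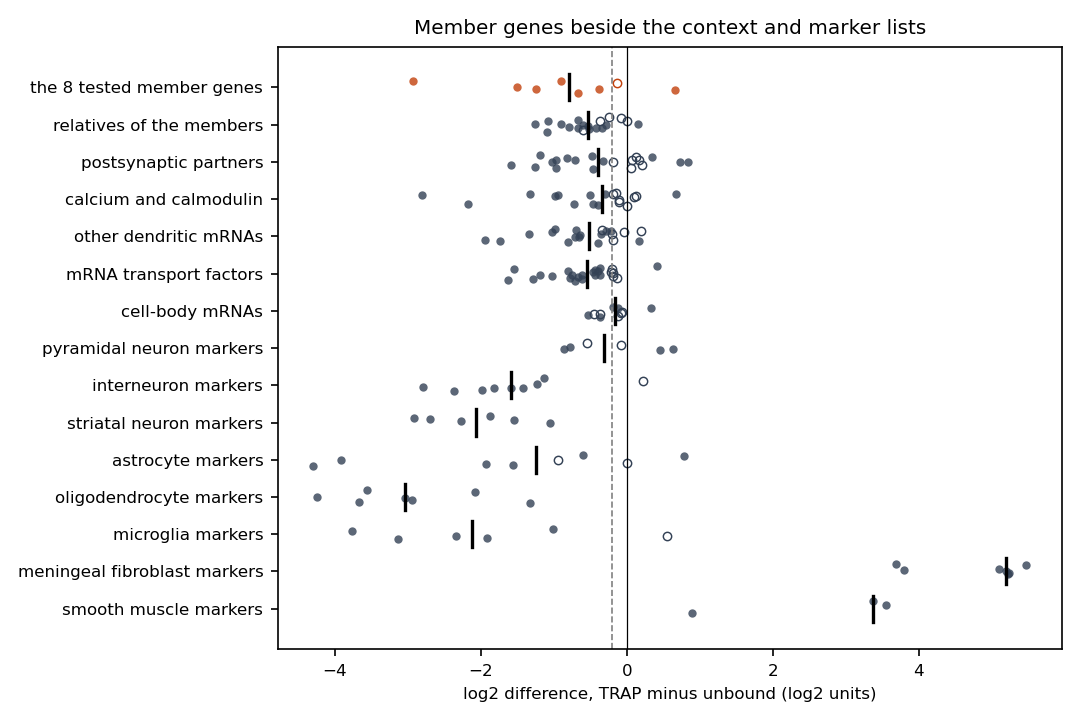
Log2 difference of each gene by list, with filled points called, open points not called, black bars the list medians, the dashed line the median of all genes (-0.21) and the members in orange. The member genes range from Map2 at -2.93 to Nrgn at 0.66, inside the range that the glial, interneuron and meningeal marker lists cover, and the 2 testable endothelial markers are not drawn.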

How the data were processed

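RNA from 3 TRAP and 3 unbound samples was extracted, and 15 ng was amplified in 2 cycles, labelled with biotin and hybridised to Affymetrix arrays, per the labels' protocols. The authors deposited 1 linear intensity for each probe set and sample, made with GCRMA per the submitters' processing notes, a method that normally corrects background, quantile-normalises and summarises probes. The version, and whether the groups were processed together, are not given in the sources used here, and exact repeats occurred within groups (17.9% to 21.6% of tested probe sets on any pair of arrays) but in 0% of cases between groups. Amplification in 2 cycles tends to shorten the product towards the 3′ end of the transcript, and a probe set's value can depend on where it lies.

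Log2 intensities without a pseudocount were tested two-sided by limma 3.58.1 under R 4.3.3, using lmFit and eBayes with no term beyond group, for every probe set with a mean of at least 50 in 1 group or more, a limit from the series text. Benjamini-Hochberg adjustment ran over all 22591, with a threshold of 0.05. Symbols came from the platform annotation, and 9 of 9 member genes matched RefSeq by Entrez ID with 0 symbols changed. The fit was checked on simulated data. Deviations from the group means of same-numbered TRAP and unbound samples correlated at 0.42, 0.45 and 0.37 across probe sets. Those of differently numbered samples correlated at -0.31 to -0.096, so the numbers were taken to pair the samples. A fit with the replicate block was run as an alternative. The p-values and counts given come from the fit without pairing unless the block is named. Members and lists were chosen with earlier results of these data known. All member probe sets are described. Of the relatives, partners and calcium genes examples are given, and of the other lists up to 3 called genes with the largest differences in each direction; other genes were chosen after their values were seen.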

Additional observations from a re-analysis of the deposited data

How the results depend on the processing

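Each result was recomputed with the arrays centred or quantile-normalised, other filters and floors, 1 probe set per gene, no repeated values, an intensity-dependent prior, a test against a 2-fold change, the replicate block and each array left out. Of 210 values for the 14 member probe sets 193 kept direction and side of the threshold, 8 lost and 3 gained a call and 6 turned. The member count of 9 lower ranged from 9 to 10 and that of 1 higher from 1 to 1 with an array left out. After centring, members counted 3 higher, all probe sets 5755 lower and 9889 higher, and the 6 context lists together 31 lower and 31 higher, against 67 and 8 before. Quantile normalisation gave 7083 probe sets higher and 13 context genes higher. Without a filter 12 of 19 member probe sets were lower and 2 higher, beside 22216 and 11073 of 45037 probe sets in all. The 5 member probe sets added in this way lay under 50 in both groups. With 1 probe set per gene 5517 were lower and 2812 higher, from fewer features tested. Without repeated values 0 members were higher (Nrgn holds them), 4065 probe sets were lower and 1855 higher, and 32 and 3 context genes. Against a 2-fold change 4 member probe sets, all of Map2 or Camk2a, were lower and 0 higher. Among them 1440699_at and 1443876_at passed the level minimum in unbound RNA alone and so had to differ. In the main fit 10 were called in either direction, and 6 were at least 2-fold lower. Of all 22591 probe sets 2144 were lower and 863 higher against a 2-fold change, and of the context genes 8 and 0. Leaving out an array gave 61 to 68 context genes lower and 5 to 8 higher, the 5 without TRAP replicate 1, and 9643 to 10248 probe sets lower and 3981 to 4616 higher.

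Turned signs after centring were those of Camk2a 1442707_at (0.17), Dlg4 1419580_at (0.056), Dlgap3 (0.29), Snap25 (0.24) and Nefl (0.063), and after quantile normalisation Camk2a 1442707_at (0.019) and Dlgap3 (0.10). Without unbound replicate 3 Dlg4 1419581_at was -0.036 (range with an array left out -0.036 to 0.22). The cause was not tested. With 1 array left out, which leaves its same-numbered partner unpaired, Arc ranged from -0.44 to 0.85, also below 0 at -0.24 and -0.018. With the replicate block the members counted 9 lower and 1 higher, and Tubb3 was the only named gene to lose its call. The smallest adjusted p-values of limma were larger with the block: 3.8e-04 for both Map2 1440699_at and Camk2a 1443876_at, against 3.0e-07 and 2.4e-07. Others were smaller, as for Ddn (0.0012 against 0.0022). The scale of the arrays, repeated values, probe sets near background and the number of arrays all limit what these values can show.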
